A study of Mus musculus with 12 samples.

Results

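The expression of 9 genes that mark TREM2-positive, lipid-associated macrophages was followed across the tumors of the series. The genes were Trem2, Tyrobp, Apoe, Gpnmb, Lpl, Spp1, Fabp5, Cd9 and Lgals3, taken by symbol from the 55401 rows of the expression table, and all 9 were among the 15504 genes abundant enough to be tested. The tumors grew from 4T1 cells, a mouse mammary carcinoma line, injected orthotopically into Balb/c mice, so every group shared the strain and the tumor line. The groups were control IgG (control), an interleukin-10 Fc fusion protein (IL-10-Fc), an antibody against mouse CSF-1R (aCSF1R) and BF10, a fusion protein that joins the CSF-1R antibody to human IL-10. Each group held 3 tumors with 1 library each, 12 in all. Dosing began when tumors reached 100 mm3, and the labels give 6 doses where the series description gives fewer. The labels do not say whether animals were housed or processed in batches. The p-values weigh differences against the spread between these tumors within groups. With groups alone, that spread includes the difference between the library sets described below.

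TREM2 is a lipid-sensing receptor of macrophages and microglia that signals through the adaptor TYROBP (DAP12), which recruits the kinase SYK. Macrophages loaded with lipid, known from adipose tissue, atheroma and tumors, turn on TREM2 together with genes for lipid transport and handling, such as Apoe, Lpl and Fabp5, and for surface and secreted proteins such as Gpnmb, Cd9, Spp1 and Lgals3. Several of these genes are not particular to macrophages: carcinoma cells make osteopontin, galectin-3, CD9 and FABP5, and adipocytes are a major source of lipoprotein lipase. CSF-1R is the receptor for CSF-1 and IL-34, on which many tissue macrophages depend.

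Levels are given as TPM, the deposited FPKM value of a gene brought to the same total in each library, which allows levels of different genes to be set side by side. Estimated depth was similar in all libraries, between 30100000 and 35500000 reads. The libraries fell into 2 sets by their FPKM sum, however, with 5 higher-sum libraries (control replicates 4 and 7, IL-10-Fc replicate 7, aCSF1R replicate 8 and BF10 replicate 6) and 7 lower-sum libraries, and 59.2% of all tested genes were called between higher-sum and lower-sum libraries. Mitochondrial genes took 5.90% to 9.26% of the TPM total in higher-sum and 3.14% to 3.97% in lower-sum libraries, and the 50 most abundant genes 26.7% to 36.0% and 19.2% to 20.1%; their part in the results was not tested. Control held 2 higher-sum libraries and each treated group 1, so a second fit carried the library set as a term. The sets are not in the labels and were formed from the FPKM sums of these same libraries. Calls of the second fit are therefore not independent support for those of the first. A gene was called when its Benjamini-Hochberg adjusted p in limma was below 0.05 and its change was at least 1.5-fold. Transcripts of the keratins Krt8 (239 to 1090 TPM) and Krt18 (372 to 1080 TPM), epithelial markers, were abundant in all 12 libraries. BF10 replicate 3 stood apart through its neutrophil transcripts, with S100a8 at 6522 TPM against 143 to 1363 TPM elsewhere. Changes in BF10 against control and against aCSF1R with groups alone are given with and without it. Group means, values of the second fit and those of the non-additive contrast below include it.

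The 9 genes spanned a wide range of levels. Spp1 was the most abundant, with group means between 3919 TPM in IL-10-Fc and 8326 TPM in control. Apoe followed with 377 to 1508 TPM, and then came Cd9, Lgals3 and Tyrobp, whose group means lay between 86.9 and 749 TPM. Fabp5 had group means of 95.2 to 152 TPM, Trem2 of 5.43 to 39.5 TPM and Lpl of 4.12 to 16.5 TPM. Gpnmb was close to the detection limit, with group means of 0.596 to 2.94 TPM and an estimated 37 reads in the library where it was lowest.

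**Figure D1:**
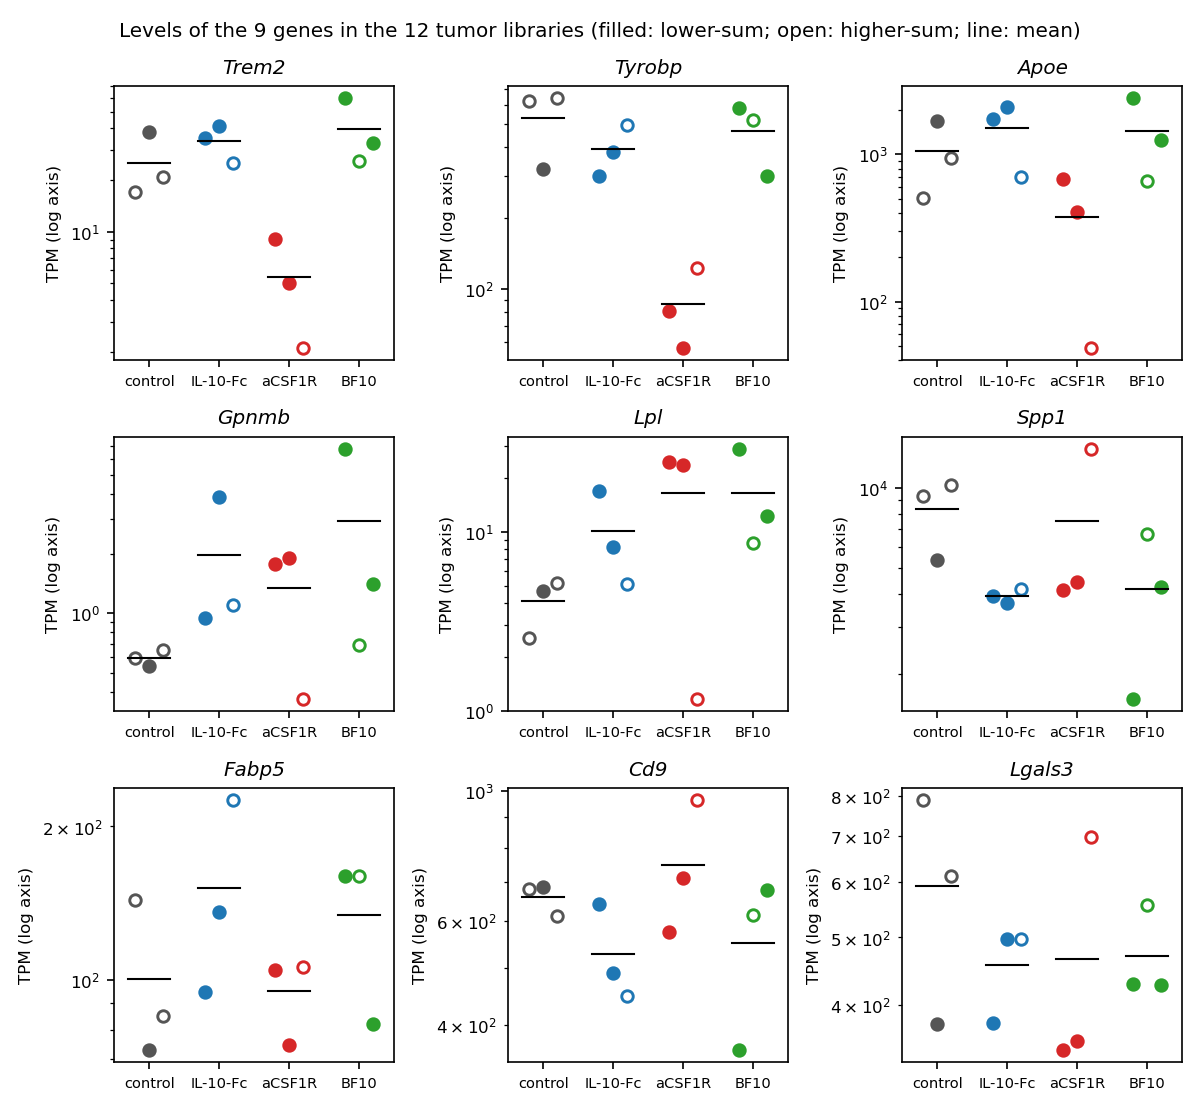
Level of each gene (TPM, log axis) in the 3 tumors of each group. Points are libraries, filled for lower-sum and open for higher-sum libraries, and lines are group means. In aCSF1R, Trem2 (2.1 to 9.12 TPM) and Tyrobp (56.5 to 123 TPM) lay below every other library, while Spp1, Fabp5, Cd9 and Lgals3 overlapped with control.

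Loss of macrophages under CSF-1R blockade was addressed by the comparison of aCSF1R with control. Of the 9 genes, Tyrobp alone fell, Trem2 and Apoe were lower without passing the test, and the other 6 showed no called change. Over all tested genes 0.568% were called, 88 lower and 0 higher. The median log2 change of the 9 genes was -0.34 against a median of 0.24 over all tested genes, and 6 of the 9 were lower. In bulk tumor RNA, fewer macrophages and less RNA per macrophage cannot be told apart.

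Tyrobp encodes the signalling adaptor of TREM2 and of several other myeloid receptors, and lies at chr7:30413760-30417585 on the plus strand (GRCm38, GENCODE M21). Its level was 622, 323 and 640 TPM in control replicates 4, 5 and 7 and 81.2, 56.5 and 123 TPM in aCSF1R replicates 4, 6 and 8. All 3 aCSF1R tumors were below all controls, where groups did not overlap for 5.28% of all tested genes. The group mean was 16.5% of the control mean. Tyrobp was higher in the higher-sum libraries by 0.67 on the log2 scale (SE 0.18), of which control held more. Within the lower-sum and the higher-sum libraries, the aCSF1R level was 21.3% and 19.5% of control. On the log2(TPM + 1) scale Tyrobp fell by 2.60 (SE 0.38, adjusted p = 0.0091 in limma). The call was lost when control replicate 4, control replicate 7 or aCSF1R replicate 6 was left out (adjusted p = 0.0608, 0.0629 and 0.0531), with changes of -2.45 to -2.32, and under median-of-ratios scaling (adjusted p = 0.151).

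Trem2 itself, on the plus strand at chr17:48346401-48354147 with 5 exons in its longest coding transcript, was also lowest in the aCSF1R tumors. Control replicates 4, 5 and 7 had 17.0, 38.1 and 20.7 TPM, and aCSF1R replicates 4, 6 and 8 had 9.12, 5.05 and 2.1 TPM. The groups did not overlap, which held for 5.28% of all tested genes, and the aCSF1R mean was 21.5% of control. The log2 change of -2.11 (SE 0.48, 95% interval -3.17 to -1.05) missed the threshold with groups alone (adjusted p = 0.137 in limma). Trem2 was lower in the higher-sum libraries by 0.92 on the log2 scale (SE 0.20), and once the set was a term in the model it fell by 2.41 (SE 0.27, adjusted p = 0.00055), where 2.01% of all tested genes were called.

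Apoe, the apolipoprotein that carries lipid out of cells and a ligand of TREM2, lies on the minus strand at chr7:19696109-19699188. It had 506, 1687 and 945 TPM in control replicates 4, 5 and 7 and 675, 407 and 48.4 TPM in aCSF1R replicates 4, 6 and 8. One aCSF1R tumor exceeded the lowest control, so the groups overlapped. The change was -1.96 (SE 0.90, 95% interval -3.95 to 0.02, adjusted p = 0.893 in limma), and it was -0.83 without aCSF1R replicate 8 and -2.71 without aCSF1R replicate 4. Apoe was the gene of the 9 with the largest difference between the library sets, lower in higher-sum libraries by 1.88 (SE 0.34). With the set as a term it fell by 2.59 (SE 0.47, adjusted p = 0.0144), and in the lower-sum libraries alone the aCSF1R mean was 32.1% of the 1 control value.

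Spp1 encodes osteopontin, a secreted glycoprotein that binds integrins and CD44, and lies on the plus strand at chr5:104435118-104441050. Its level was 9331, 5360 and 10286 TPM in control replicates 4, 5 and 7 and 4119, 4419 and 13949 TPM in aCSF1R replicates 4, 6 and 8. Replicate 8, the aCSF1R tumor with the lowest mean level of macrophage markers, had the highest Spp1 level of the 12 libraries. The log2 change was -0.34 (SE 0.56, 95% interval -1.58 to 0.90, adjusted p = 0.893 in limma), and Spp1 was higher in the higher-sum libraries by 1.02 (SE 0.26). An unprocessed transcript model, Gm42793, overlaps Spp1 on the same strand and reached 19.9 TPM.

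Cd9, a tetraspanin of the plasma membrane on the minus strand at chr6:125460266-125494791, had 681, 685 and 613 TPM in control replicates 4, 5 and 7. It had 575, 710 and 962 TPM in aCSF1R replicates 4, 6 and 8. The groups overlapped, with a change of 0.15 (SE 0.28, 95% interval -0.46 to 0.76) that turned to -0.03 on FPKM without rescaling and to -0.09 with median-of-ratios scaling. The noncoding genes Gm28809 and Gm26728 lie on the opposite strand of Cd9 and reached 5.25 and 0.31 TPM. The library kit kept strand information, but whether the counting used it is not given in the sources used here.

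Lgals3, coding for the lectin galectin-3, lies on the plus strand at chr14:47367751-47386160. It had 787, 376 and 613 TPM in control replicates 4, 5 and 7 and 345, 355 and 697 TPM in aCSF1R replicates 4, 6 and 8. The ranges overlapped, and the change was -0.36 (SE 0.33, 95% interval -1.09 to 0.37). Fabp5, on the plus strand at chr3:10012548-10016607, codes for an intracellular fatty acid carrier. It had 144, 73.0 and 85.1 TPM in control replicates 4, 5 and 7 and 105, 74.6 and 106 TPM in aCSF1R replicates 4, 6 and 8. Its change of -0.04 (SE 0.39, 95% interval -0.89 to 0.82) turned to 0.16 with the library set as a term. The adjusted p of both genes in limma, 0.893 and 0.976, missed the threshold, and the intervals still allow a change of more than 1.5-fold in either gene.

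Lpl and Gpnmb were higher in 2 of the 3 aCSF1R tumors. Lpl, the enzyme that releases fatty acids from lipoprotein triglyceride, lies on the plus strand at chr8:68880491-68907448. It had 2.54, 4.64 and 5.19 TPM in control replicates 4, 5 and 7 and 24.4, 23.5 and 1.16 TPM in aCSF1R replicates 4, 6 and 8. Replicates 4 and 6 were thus above, and replicate 8 below, all controls, and the change of 1.15 (SE 0.86, adjusted p = 0.893 in limma) was within this spread. Replicate 8 is the higher-sum library of the group, and Lpl was lower in the higher-sum libraries by 1.48 (SE 0.45). With the set as a term the change of Lpl was 0.66.

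Adipocyte markers moved with Lpl in the aCSF1R tumors, as did the markers of several other cells. The summed level of the 5 listed markers was 84.3 and 105 TPM in replicates 4 and 6 and 0.412 TPM in replicate 8, against 0.729 to 35.3 TPM in control, 3.81 to 59.7 TPM in IL-10-Fc and 15.9 to 73.8 TPM in BF10. Adipoq, the adipocyte hormone adiponectin, had 29.6 and 47.1 TPM in aCSF1R replicates 4 and 6 and 0.174 TPM in replicate 8. All 4 tested markers had higher means in aCSF1R with a median change of 1.38, and 0 were called in limma (0 also at an unadjusted p under 0.05). The library with the most Lpl, BF10 replicate 3 at 28.8 TPM, had an adipocyte sum of 15.9 TPM. Summed epithelial markers were 2419, 2533 and 754 TPM in aCSF1R replicates 4, 6 and 8, and endothelial markers 111, 84.1 and 33.05 TPM. Fibroblast and macrophage markers were also lowest in aCSF1R replicate 8, the higher-sum library of the group. Neutrophil and monocyte markers were highest there, and NK cell markers lay between. The part of the adipocyte transcripts in the Lpl values was not tested.

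Gpnmb, a glycoprotein of lysosomes and the cell surface that marks lipid-laden macrophages, lies on the plus strand at chr6:49036546-49070929. It had 0.594, 0.54 and 0.654 TPM in control replicates 4, 5 and 7 and 1.77, 1.90 and 0.369 TPM in aCSF1R replicates 4, 6 and 8. As for Lpl, replicates 4 and 6 exceeded and replicate 8 fell short of every control. The change was 0.48 (SE 0.55, adjusted p = 0.893 in limma), on a scale that understates changes at such low levels. It was 0.24 with the library set as a term.

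**Figure D2:**
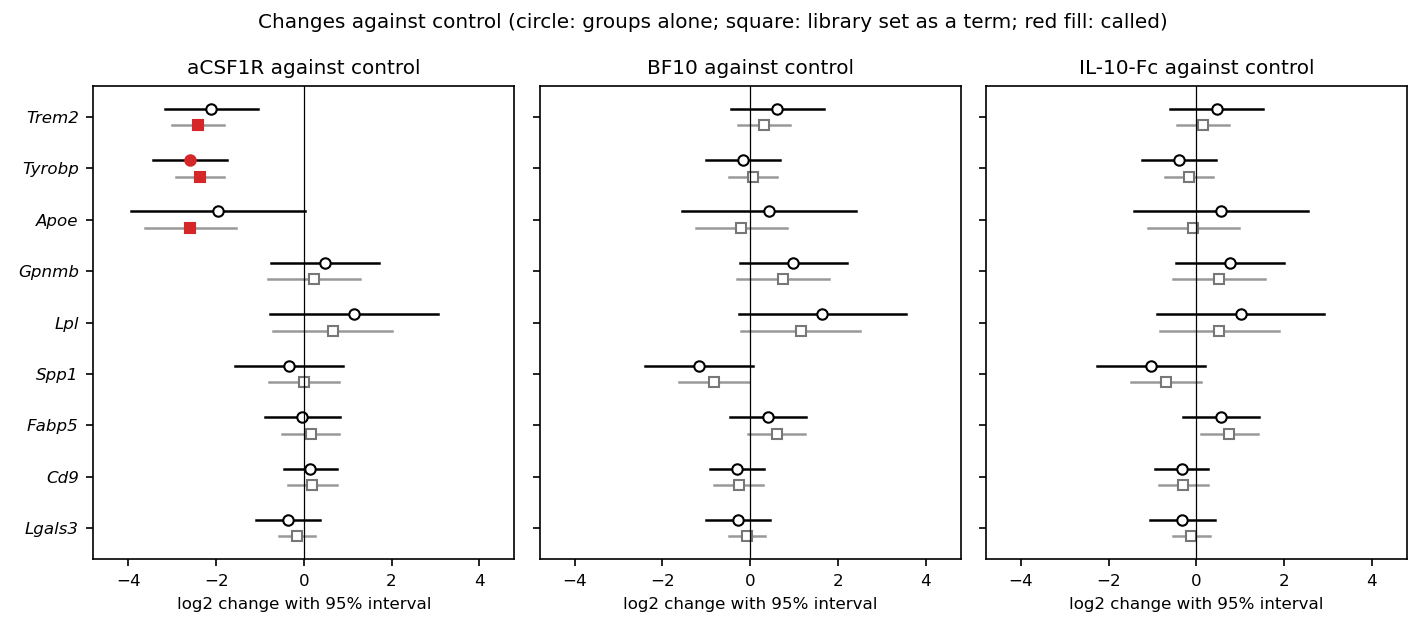
log2 change of each gene against control with its 95% interval, for aCSF1R, BF10 and IL-10-Fc. Circles are the fit with groups alone, squares the fit with the library set as a term, and red marks called changes. In aCSF1R, Tyrobp was called in both fits and Trem2 and Apoe with the set term, and no gene was called against control in BF10 or IL-10-Fc.

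To set each gene against the loss of macrophage transcripts, a macrophage index was formed as the mean log2(TPM + 1) of 12 macrophage markers, none of them among the 9 genes. The index lay between 6.06 and 6.26 in control, between 6.16 and 6.75 in BF10 and between 6.07 and 6.39 in IL-10-Fc, and was 4.04, 3.56 and 2.63 in aCSF1R replicates 4, 6 and 8. It was thus lower by 2.76 in aCSF1R than in control, with no overlap. Relative to the index, Trem2 differed between aCSF1R and control by 0.65 (exact permutation test, two-sided p = 0.2), Tyrobp by 0.16 (exact p = 0.8) and Apoe by 0.79 (exact p = 0.4). The aCSF1R and control values of these 3 genes overlapped once the index was subtracted. The overlap rested on single tumors, since the groups no longer overlapped for Trem2 without aCSF1R replicate 8 (0.70) or without control replicate 5 (0.93), nor for Apoe without aCSF1R replicate 8 (1.54). Without aCSF1R replicate 4 the difference of Apoe was 0.36. Tyrobp changed sign without control replicate 5 (-0.21) or aCSF1R replicate 8 (-0.51).

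The other 6 genes lay higher relative to the index in every aCSF1R tumor than in any control, as did 97.8% of all 15504 tested genes. The difference from control was 3.91 for Lpl, 3.24 for Gpnmb, 2.91 for Cd9, 2.72 for Fabp5, 2.42 for Spp1 and 2.39 for Lgals3, beside a median of 2.99 over all tested genes. Since the index itself was lower in aCSF1R with no overlap, these values restate its drop for any gene with a small change of its own, and the count of 6 is nothing particular to these genes.

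**Figure D3:**
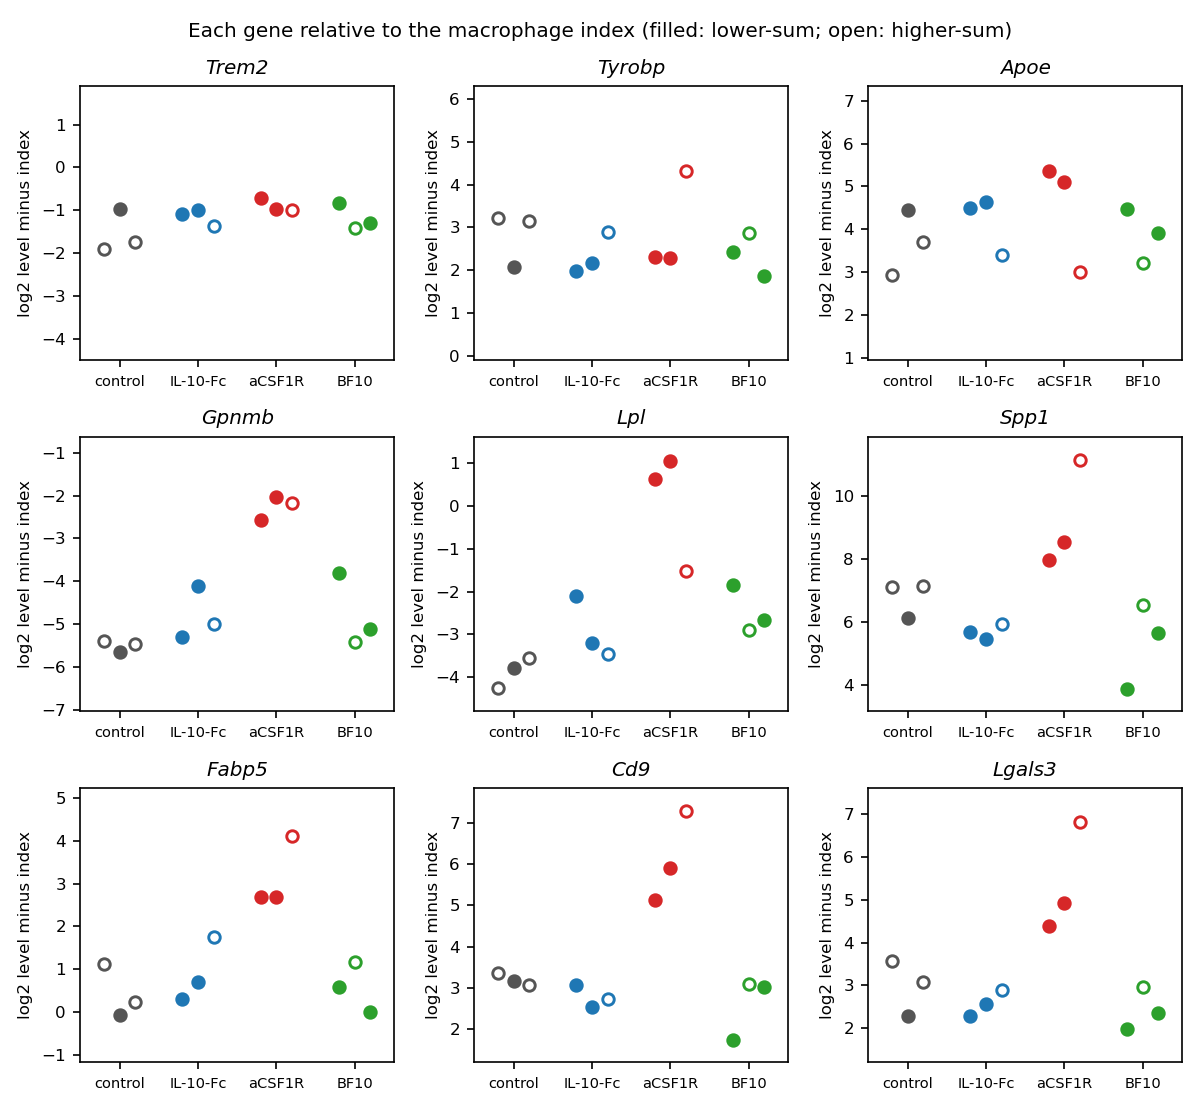
Each gene's log2(TPM + 1) minus the macrophage index, by library, with filled points for lower-sum and open points for higher-sum libraries. Trem2, Tyrobp and Apoe overlapped between aCSF1R and control, while for the other 6 genes all 3 aCSF1R tumors lay above all controls, as for 97.8% of all tested genes.

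The lists of related genes gave the context of these changes in aCSF1R against control. Over all tested genes 0.568% were called with groups alone and 2.01% with the set term. Of 12 macrophage markers, 8 fell, with a median change of -2.98, and 11 were called with the set term. Their summed level was 97.8 to 289 TPM in aCSF1R against 1958 to 2465 TPM in control. C1qc, a chain of complement C1q, fell by 4.05 (SE 0.31, adjusted p = 0.00021 in limma), and the scavenger receptor Msr1 fell by 3.75 (SE 0.22, adjusted p = 6.4e-05). Csf1r, the target of the antibody, was at 18.8, 92.7 and 38.4 TPM in control replicates 4, 5 and 7 and at 20.6, 14.1 and 1.26 TPM in aCSF1R replicates 4, 6 and 8. The change of Csf1r was -2.21 (SE 0.91, adjusted p = 0.893 in limma), and with the set term it fell by 2.89 (adjusted p = 0.0013).

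Genes for signalling downstream of TREM2 and TYROBP were lower for 9 of 10 listed members, with a median change of -1.18, and 0 were called in limma (4 at an unadjusted p under 0.05). The lowest were Card9 (-1.49, SE 0.64), an adaptor of SYK signalling, Lat2 (-1.31, SE 0.39), a linker phosphorylated on receptor engagement, and Vav1 (-1.31, SE 0.70), a guanine nucleotide exchange factor. With the set term 6 of the 10 were called lower, beside 2.01% of all tested genes called. Card9, Lat2 and Vav1 were among the 6 (adjusted p = 0.0095, 0.0029 and 0.0102 in limma). SYK-coupled signalling genes are shared by many leukocytes.

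Among 11 tested receptors of the TREM family or coupled to TYROBP, 4 fell, beside 0.568% of all tested genes called. Clec5a, a C-type lectin that signals through TYROBP, fell by 2.96 (SE 0.35, adjusted p = 0.0026 in limma), from 58.2, 30.1 and 31.5 TPM in control replicates 4, 5 and 7 to 3.53, 2.49 and 6.96 TPM in aCSF1R replicates 4, 6 and 8. Sirpb1b, Sirpb1a and Sirpb1c fell by 2.53, 2.08 and 2.05 (SE 0.34, 0.37 and 0.35). These 3 are near-identical paralogs whose reads cannot be assigned with certainty, so they are not independent counts. The call of Sirpb1a was lost in 8 of 12 leave-one-out fits (adjusted p = 0.0525 to 0.182) and that of Sirpb1c in 7 (0.0512 to 0.167), while Clec5a and Sirpb1b were called in all 12.

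Of 21 other genes known from lipid-associated macrophages, 1 fell, beside 0.568% of all tested genes called. Mmp12, the macrophage elastase, fell by 3.17 (SE 0.41, adjusted p = 0.0043 in limma), from 232, 101 and 131 TPM in control replicates 4, 5 and 7 to 9.69, 14.9 and 24.3 TPM in aCSF1R replicates 4, 6 and 8. The list's median change was -0.02, with 12 of the 21 lower. With the set term 3 were called lower, beside 2.01% of all tested genes called. Of 9 tested apolipoprotein, lipase and lipoprotein receptor genes, Apoc2, the cofactor of lipoprotein lipase, was the 1 that fell (-2.09, SE 0.39, adjusted p = 0.0453), a call lost in 11 of 12 leave-one-out fits (adjusted p = 0.0572 to 0.233). Of 2 listed sheddases of TREM2, 6 osteopontin receptors and 6 galectins other than Lgals3, 0 were called in limma and 0 passed an unadjusted p of 0.05.

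The lists for other cells of the tumor held few called genes, beside 0.568% of all tested genes called. Of 6 monocyte markers, Ccr2 was the 1 that fell (-2.57, SE 0.27, adjusted p = 0.0014 in limma), and 0 were called, or passed an unadjusted p of 0.05, of 7 neutrophil, 8 fibroblast and 7 epithelial markers, whose median changes were -0.18, 0.45 and 0.11. Their summed levels in aCSF1R replicates 4, 6 and 8 were 1011, 440 and 3382 TPM for neutrophil, 6165, 2955 and 1698 TPM for fibroblast and 2419, 2533 and 754 TPM for epithelial markers. In control, the sums were 837 to 1833, 1393 to 3658 and 1120 to 2462 TPM. The part of these cells in the levels of Spp1, Cd9, Lgals3 and Fabp5 was not tested.

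**Figure D4:**
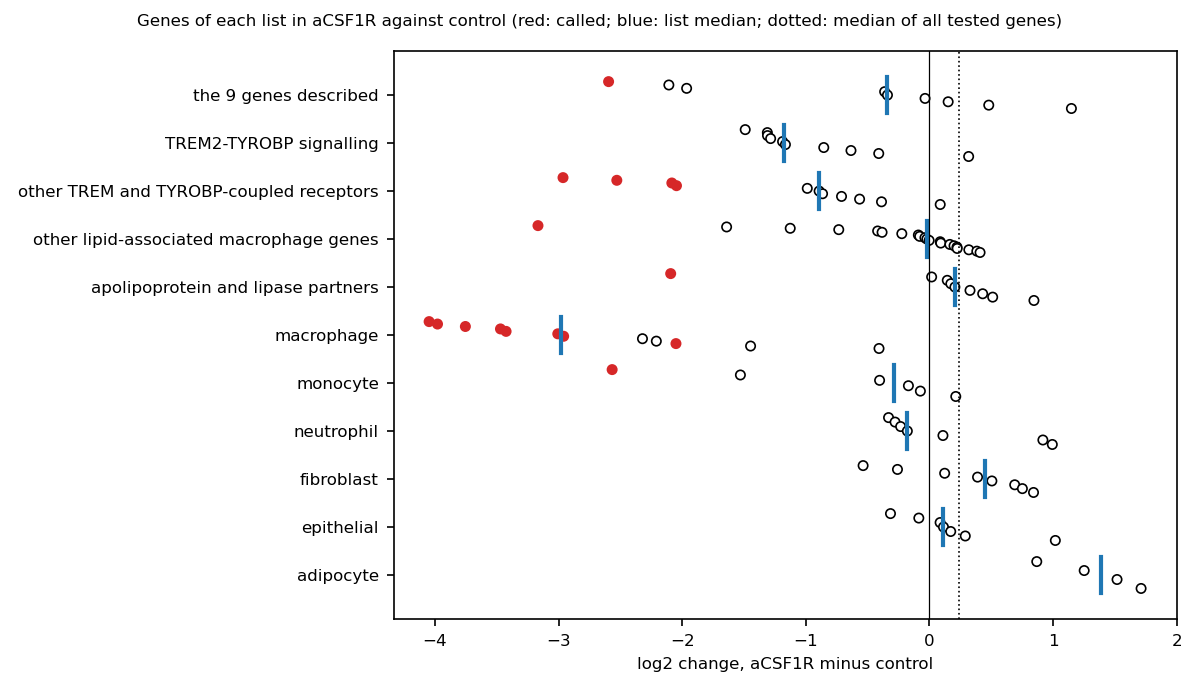
log2 change (aCSF1R minus control) of the tested genes of each list, with called genes in red, the list median as a blue bar and the median of all tested genes (0.24) as a dotted line. Macrophage markers had a median of -2.98 and held 8 called genes, and the 9 genes described here spread from -2.60 for Tyrobp to 1.15 for Lpl.

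BF10 and IL-10-Fc were each compared with aCSF1R. BF10 joins IL-10 to the CSF-1R antibody, while IL-10-Fc brings IL-10 and lacks the antibody. In IL-10-Fc against aCSF1R the presence of IL-10 and the absence of the antibody therefore cannot be told apart. In both comparisons Trem2 and Tyrobp were called higher than in aCSF1R. Of the 12 macrophage markers, 9 were also called higher in each comparison. In BF10 against aCSF1R, 0.735% of all tested genes were called and in IL-10-Fc against aCSF1R 0.542%, all higher.

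Trem2 had 59.6, 25.8 and 33.0 TPM in BF10 replicates 3, 6 and 7 and 35.0, 41.3 and 25.0 TPM in IL-10-Fc replicates 2, 4 and 7. All 6 tumors were above the 3 aCSF1R tumors, where the highest value was 9.12 TPM. The difference of Trem2 from aCSF1R was 2.73 for BF10 (SE 0.48, adjusted p = 0.0270 in limma). For IL-10-Fc it was 2.57 (SE 0.48, adjusted p = 0.0484). The call was lost in 7 of the 12 leave-one-out fits for BF10 (adjusted p = 0.0532 to 0.144) and in 9 of the 12 for IL-10-Fc (0.0574 to 0.292), while the set term gave adjusted p = 0.00016 and 0.00034. Without BF10 replicate 3 the difference for BF10 was 2.39 (SE 0.51, adjusted p = 0.144) and was not called.

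Tyrobp had 582, 521 and 302 TPM in BF10 replicates 3, 6 and 7 and 301, 378 and 494 TPM in IL-10-Fc replicates 2, 4 and 7. Again no tumor overlapped with aCSF1R, where the highest value was 123 TPM. The difference of Tyrobp from aCSF1R was 2.43 for BF10 (SE 0.38, adjusted p = 0.0132 in limma). For IL-10-Fc it was 2.20 (SE 0.38, adjusted p = 0.0311). The call was lost in 4 of the 12 leave-one-out fits for BF10 (adjusted p = 0.0526 to 0.0819), among them that without BF10 replicate 3 (2.25, adjusted p = 0.0819), and in 8 of the 12 for IL-10-Fc (0.0508 to 0.173).

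Apoe had 2395, 658 and 1245 TPM in BF10 replicates 3, 6 and 7 and 1726, 2094 and 705 TPM in IL-10-Fc replicates 2, 4 and 7. The IL-10-Fc tumors were all above aCSF1R, and BF10 replicate 6 lay just below aCSF1R replicate 4. The differences of 2.39 and 2.52 (SE 0.90 each) were not called (adjusted p = 0.809 and 0.864 in limma). They were 1.25 and 1.38 without aCSF1R replicate 8, and without BF10 replicate 3 the first was 1.92 (SE 1.00). With the set term, Apoe was called in both comparisons (adjusted p = 0.0147 and 0.0132), where 2.82% and 2.13% of all tested genes were called. Of the 9 genes, groups did not overlap for 2 in BF10 against aCSF1R and for 3 in IL-10-Fc against aCSF1R, beside 5.91% and 7.49% of all tested genes.

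**Figure D5:**
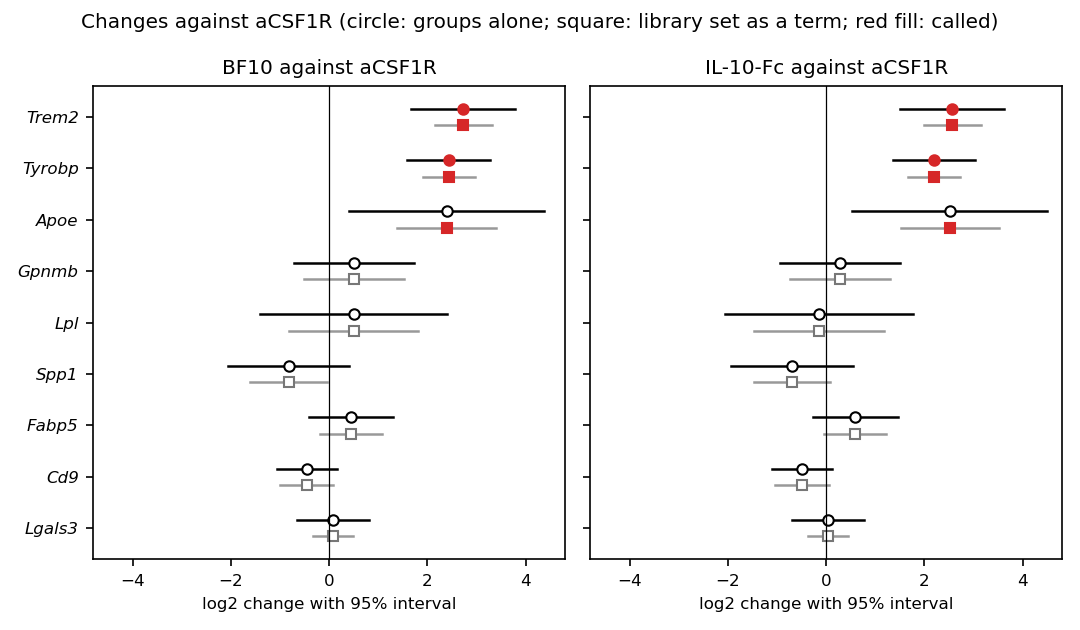
log2 change of each gene against aCSF1R with its 95% interval, for BF10 and IL-10-Fc. Circles are the fit with groups alone, squares the fit with the library set as a term, and red marks called changes, which were Trem2 and Tyrobp in both fits and Apoe with the set term.

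Against control, none of the 9 genes was called in BF10 or in IL-10-Fc, where 0% and 0.00645% of all tested genes were called in limma (0.00645% and 0.0258% with the set term). At an unadjusted p under 0.05, 234 and 224 of all tested genes differed, 0 of the 9 among them. The adjusted p of the 9 genes was at least 0.788 for BF10 and at least 0.738 for IL-10-Fc. The median log2 change over all tested genes was 0.32 in BF10 and 0.35 in IL-10-Fc, a shift that the changes below include. Trem2 had a change of 0.62 in BF10 (SE 0.48, 95% interval -0.44 to 1.68) and of 0.46 in IL-10-Fc (SE 0.48, 95% interval -0.60 to 1.52), so differences of more than 1.5-fold remained possible. Without BF10 replicate 3 the change of Trem2 in BF10 was 0.28 (SE 0.51). Tyrobp had changes of -0.16 and -0.40 (SE 0.38 each), the first -0.35 (SE 0.43) without BF10 replicate 3.

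The mean of Spp1 was below control in both IL-10 groups, without a called change. It had 1606, 6709 and 4222 TPM in BF10 replicates 3, 6 and 7 and 3923, 3686 and 4147 TPM in IL-10-Fc replicates 2, 4 and 7. All IL-10-Fc tumors were below all controls, and BF10 replicate 6 overlapped with control. The changes of -1.17 (SE 0.56) in BF10 and -1.03 (SE 0.56) in IL-10-Fc missed the threshold, and without BF10 replicate 3 the first was -0.59 (SE 0.51). As 2 of the 3 controls were higher-sum libraries, in which Spp1 was higher, the changes with the set term were smaller, at -0.83 (SE 0.36) and -0.69 (SE 0.36).

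Gpnmb and Lpl were highest in BF10 replicate 3. Gpnmb had 6.73, 0.687 and 1.41 TPM in BF10 replicates 3, 6 and 7 and 0.942, 3.86 and 1.10 TPM in IL-10-Fc replicates 2, 4 and 7. All 6 values were above the highest control, 0.654 TPM, in BF10 replicate 6 by a narrow margin. Every control was below 1 TPM, so Gpnmb passed the filter only through treated tumors, and its separation from control is not support for a change. Lpl had 28.8, 8.65 and 12.2 TPM in BF10 replicates 3, 6 and 7, all above control, and 16.8, 8.22 and 5.11 TPM in IL-10-Fc replicates 2, 4 and 7, of which the last overlapped. The changes in BF10 were 0.98 (SE 0.55) for Gpnmb and 1.65 (SE 0.86) for Lpl, and without replicate 3 they were 0.34 (SE 0.45) and 1.18 (SE 0.96). Groups did not overlap for 2 of the 9 genes in BF10 against control, Gpnmb and Lpl, and for 2 in IL-10-Fc against control, Gpnmb and Spp1, beside 3.53% and 6.53% of all tested genes.

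Fabp5 had 160, 160 and 82.0 TPM in BF10 replicates 3, 6 and 7 and 94.6, 136 and 225 TPM in IL-10-Fc replicates 2, 4 and 7, with changes of 0.41 and 0.56 (SE 0.39 each). Cd9 had 363, 616 and 678 TPM in BF10 and 643, 490 and 448 TPM in IL-10-Fc in the same order, with changes of -0.31 and -0.34 (SE 0.28 each). Lgals3 had 428, 556 and 427 TPM in BF10 and 376, 497 and 497 TPM in IL-10-Fc, with changes of -0.28 and -0.32 (SE 0.33 each). Without BF10 replicate 3 the changes in BF10 were 0.25 for Fabp5, -0.03 for Cd9 and -0.22 for Lgals3 (SE 0.44, 0.26 and 0.39). All 3 genes overlapped with control in BF10, and the differences were within the spread between tumors.

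BF10 and IL-10-Fc were also set against each other. None of the 9 genes was called, as was 0% of all tested genes in limma (42 at an unadjusted p under 0.05, 0 of the 9 genes among them), and for 0 of the 9 did the groups separate, beside 2.13% of all tested genes. Trem2 differed by 0.16 (SE 0.48, 95% interval -0.90 to 1.22) and Tyrobp by 0.23 (SE 0.38, 95% interval -0.61 to 1.07).

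Whether the effect of BF10 was the sum of the effects of its parts was asked with a contrast. It set BF10 and control against IL-10-Fc and aCSF1R. Its median over all tested genes was -0.28 with groups alone and -0.06 with the set term. The value was 2.83 (SE 0.54, adjusted p = 0.0813 in limma) for Tyrobp and 2.27 (SE 0.68, adjusted p = 0.692) for Trem2, and none of the 9 genes was called, beside 0.29% of all tested genes (377 genes at an unadjusted p under 0.05, 2 of the 9 among them). With the library set as a term, Tyrobp (2.61, SE 0.34, adjusted p = 0.0032) and Trem2 (2.57, SE 0.38, adjusted p = 0.0063) were called, beside 1.21% of all tested genes. These 2 genes were thus higher in BF10 than the sum of the separate effects in that fit, and Apoe (2.46, SE 0.65, adjusted p = 0.165) was not called. This was not particular to them. Of the 12 macrophage markers 10 were called higher in that fit, with a median of 3.31. With groups alone 6 were called, with a median of 3.22. All values of this contrast include BF10 replicate 3.

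BF10 replicate 3 had the highest level of Trem2, Apoe, Gpnmb and Lpl and the lowest of Spp1 and Cd9 among the 12 libraries. Its Trem2 level was 2.38 times, its Gpnmb level 7.14 times and its Lpl level 3.51 times the median of the other 11 libraries. The summed neutrophil markers were 16463 TPM in this tumor against 440 to 3382 TPM in the other 11, and the fibroblast markers 10272 TPM against 1393 to 6819 TPM. The part of these cells in the values of BF10 replicate 3 was not tested.

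Genes with a pattern like that of Trem2 were sought as those with the smallest root mean square difference in centred log2(TPM + 1) over the 12 libraries. The nearest was Spi1 (0.16), which codes for the myeloid transcription factor PU.1, then Rab3il1 (0.20), Nckap1l (0.21), Otulinl (0.22) and Lrrc25 (0.24). Spi1 had group means of 34.5 ± 11.8 TPM in control, 61.7 ± 33.1 TPM in BF10, 46.4 ± 7.88 TPM in IL-10-Fc and 9.12 ± 4.73 TPM in aCSF1R (SD, n = 3). Its change in aCSF1R against control was not called (-1.87, SE 0.44, adjusted p = 0.161 in limma). The macrophage markers Adgre1 and Cd68 stood at ranks 14 and 16. Among the 9 genes Apoe came nearest to Trem2, at rank 119 of all tested genes, and Tyrobp stood at rank 513. Spp1 was the farthest, at rank 15339 of 15504. The points share the library sets, and the likeness is given as a description.

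The sequence before the start of Trem2 is shown because Spi1 was the gene most like it, beside those of Apoe and Spp1, a gene lower in aCSF1R in the fit with the set term and one that was not. PU.1 binds purine-rich sites, and the letters GAGGAA were searched on both strands in the 250 bases before each start, a motif chosen after the values of Spi1 were seen. The RefSeq promoter table (GRCm38.p6) held entries for 6 of the 9 genes, with 9 starts in all, and named none for Tyrobp, Lpl and Fabp5. GAGGAA or its reverse complement TTCCTC was found in 4 of the 9, in Trem2, Apoe (2 of its 3 starts) and Spp1 (not at its other start). It was found in 23.3% of the 32851 promoters of the table. Gpnmb, Cd9 and Lgals3 had no match, so the genes printed are those with a match. Capitals below mark these matches, each sequence reads 5′ to 3′ on the strand of its gene, and the coordinates are chr17:48346151-48346400 (plus) for Trem2, chr7:19699189-19699438 (minus) for Apoe and chr5:104434861-104435110 (plus) for Spp1.
Trem2: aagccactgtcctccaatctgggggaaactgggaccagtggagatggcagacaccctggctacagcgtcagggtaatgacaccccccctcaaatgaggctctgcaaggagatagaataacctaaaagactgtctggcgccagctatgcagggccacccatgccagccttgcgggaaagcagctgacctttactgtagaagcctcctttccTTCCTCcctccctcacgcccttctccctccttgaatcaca
Apoe: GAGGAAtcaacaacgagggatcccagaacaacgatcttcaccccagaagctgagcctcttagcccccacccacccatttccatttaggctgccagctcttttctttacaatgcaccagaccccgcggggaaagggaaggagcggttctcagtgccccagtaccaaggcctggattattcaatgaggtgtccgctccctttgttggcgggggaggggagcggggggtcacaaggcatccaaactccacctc
Spp1: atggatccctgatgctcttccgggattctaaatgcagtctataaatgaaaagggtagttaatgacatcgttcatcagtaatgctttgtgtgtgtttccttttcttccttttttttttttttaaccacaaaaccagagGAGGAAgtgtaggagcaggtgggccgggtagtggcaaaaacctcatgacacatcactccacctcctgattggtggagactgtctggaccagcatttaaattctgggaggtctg
The match of Trem2 lies on the opposite strand and begins 40 bases before the start. That of Apoe begins 250 bases before its start and that of Spp1 113 bases before. Whether PU.1 binds these sites was not tested.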

How the data were processed

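Bulk RNA-seq of 12 orthotopic 4T1 tumors was analysed, grouped by the treatment in the labels. The authors deposited FPKM values, which scale fragments to transcript length and to the mapped fragments of each library, with 2 decimals for 55401 genes, and 0 columns were left unmatched. The submitters' processing notes name the builds mm10 and GRCm38, STAR 2.7.5a, RSEM 1.3.3 and DESeq2 1.28.0 without their roles, and whether strand was used in counting is not given in the sources used here. The authors' 4 tables of their own comparisons, which hold fold changes, p-values and mean levels, were not used.

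FPKM was divided by its library sum and multiplied by 1000000 (TPM), and log2(TPM + 1), which understates the change of low genes, was tested. The filter kept 15504 genes that reached 1 TPM in 3 or more libraries. limma 3.58.1 in R 4.3.3 (eBayes with trend) was fitted to all 12 libraries with 1 mean per group, two-sided, with Benjamini-Hochberg adjustment over all tested genes and a call at adjusted p below 0.05 and at least 1.5-fold. The script was tested on simulated data without a difference between library sets, so that test does not cover the effect of the sets. Depth was estimated from low FPKM values, which came out as whole reads for 65.8% to 71.8% of them (tolerance 0.12), too few for a count test. A single value was tested by the exact permutation test, whose smallest p is 0.1 for 3 against 3.

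Named were the 9 genes, Csf1r, up to 3 tested genes per other list by size of change in aCSF1R against control, and the 5 genes nearest to Trem2. Genes outside this rule (Adipoq, Sirpb1c, Krt8, Krt18, S100a8) were named after their values were seen. The 9 genes and the lists were chosen with earlier results of these data known. The library sets, which the labels do not give, were split by the libraries' own FPKM sums at 700000. The alternatives tried were a pseudocount of 0.1, FPKM without rescaling, median-of-ratios scaling, no filter, the groups compared alone, the library set or the replicate number as a term, no minimum fold, each library left out and, chosen after seeing the data, each library set alone.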

Additional observations from a re-analysis of the deposited data

How the results depend on the processing

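The number of the 9 genes called was followed over the alternatives. In aCSF1R against control it was 1, with 2 on FPKM without rescaling, 3 with the library set as a term, and 0 with the replicate block, with only the groups compared or in the lower-sum libraries alone. In BF10 against aCSF1R it was 2, with 1 on FPKM without rescaling, with median-of-ratios scaling, without a filter or in the lower-sum libraries, 3 with the set term, and 0 with the replicate block or only the groups compared. In IL-10-Fc against aCSF1R it was 2, with 1 at a pseudocount of 0.1, on FPKM without rescaling or with median-of-ratios scaling, 3 with the set term, and 0 without a filter, with the replicate block, with only the groups compared or in the lower-sum libraries. In the non-additive contrast it was 0, with 1 under median-of-ratios scaling (Trem2) and 2 with the set term. Leaving out 1 library at a time gave 0 to 1 in aCSF1R against control, 0 to 2 in BF10 or IL-10-Fc against aCSF1R, and 0 to 1 in the non-additive contrast. The other comparisons stayed at 0 throughout. Trem2 was called in aCSF1R against control on FPKM without rescaling (adjusted p = 0.0107 in limma), with median-of-ratios scaling (0.0023) and with the set term (0.00055) (over all its alternatives its adjusted p ranged from 0.00055 to 0.819). The lower-sum libraries hold 1 control tumor, which is assumed to vary like the other groups.

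Over all tested genes, the calls ranged over the alternatives from 0 to 312 (88 reported) in aCSF1R against control, 0 to 437 (114) in BF10 against aCSF1R, 1 to 330 (84) in IL-10-Fc against aCSF1R and 0 to 188 (45) in the non-additive contrast, in each case with the most under the set term. In BF10 against control and against IL-10-Fc they were 0 to 1 (0), and in IL-10-Fc against control 0 to 4 (1). On FPKM without rescaling, 128 genes were called in aCSF1R against control, 160 in BF10 against aCSF1R and 107 in IL-10-Fc against aCSF1R. In the same order, the counts were 139, 138 and 70 with median-of-ratios scaling and 4, 0 and 12 with only the groups compared.

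The changes that reversed sign were not called in the fit reported. With the set term, Fabp5 in aCSF1R against control became 0.16, Tyrobp and Apoe in BF10 against control 0.060 and -0.20, and Apoe in IL-10-Fc against control -0.074. In the lower-sum libraries, Fabp5 (0.27) and Cd9 (-0.10) reversed in aCSF1R, Tyrobp (0.37) and Lgals3 (0.19) in BF10, and Trem2 (-0.0031), Tyrobp (0.062) and Lgals3 (0.20) in IL-10-Fc, each against control. Cd9 in aCSF1R was -0.032 on FPKM without rescaling and -0.087 with median-of-ratios scaling. Relative to the macrophage index, Apoe was -0.32 in the higher-sum libraries. Leaving out 1 library moved Fabp5 from -0.23 to 0.25 and Cd9 from -0.045 to 0.33 in aCSF1R against control, Tyrobp from -0.48 to 0.13 and Apoe from -0.041 to 0.89 in BF10 against control, and Trem2 from -0.18 to 0.41 and Apoe from -0.60 to 0.34 in BF10 against IL-10-Fc. It moved Tyrobp minus the index from -0.51 to 0.51. The cause was not tested.

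Over the 7 pairs of same-numbered tumors the correlation of deviations from the group means was between -0.66 and 0.42. It was positive for pairs within a library set (0.35 and 0.42) and negative for all pairs across the sets. The values thus follow the library set and cannot show whether the replicate numbers pair the tumors. With the replicate block, in which few numbers are shared between groups, Csf1r (0.014), Card9 (0.019), Vav1 (0.23) and Cd9 (-0.065) in aCSF1R against control and Tyrobp (-0.17) and Apoe (0.045) in BF10 against IL-10-Fc reversed. Gpnmb, at an estimated 37 to 498 reads, is the gene whose precision depth limits most.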

Other observations

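Other receptors of the TREM family stood out in BF10 replicate 3, as a description chosen after the values were seen. Trem3 had 25.9 TPM in this tumor against 0.541 to 3.96 TPM in the other 11 libraries, Treml2 9.40 TPM against 0.033 to 3.63 TPM, and Trem1, a receptor of neutrophils and monocytes that signals through TYROBP, 14.7 TPM against 0.825 to 9.35 TPM. Chil3, a lectin of myeloid cells, had 41.6 TPM against 1.13 to 4.90 TPM. Ly6g, a neutrophil marker, had 74.8 TPM against 0.459 to 5.04 TPM. The part of the neutrophil transcripts in these levels was not tested.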
